A study of Rattus norvegicus with 9 samples.

Results

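Nuclear speckles are granules of the cell nucleus that store splicing factors, and the 41 genes described here encode proteins of these granules or of the SR family and its partners. The 41 were selected on known membership in these families, with gene levels of these same libraries already in view, among them the lower level of Pnn in cells given energized structured water than in cells given control water. Gene-level differences between the groups are therefore given as a description of each gene, and their adjusted p-values are no test of the group of genes. All 41 were among the 36856 genes of the deposited tables, and all 41 passed the filter on low counts, which kept 14706 genes.

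The libraries came from wild-type H9c2(2-1), a myoblast line from embryonic heart of BD1X rats. The untreated group (Control) stayed in normal growth medium. The ESW group received energized structured water and the CW group control water, both at a dilution of 0.01 for 72 h in medium replaced every 24 h. Each group had 3 libraries, and the labels do not say whether these came from separate cultures, so that each p-value reflects the variation among the deposited libraries, which could be technical.

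SR proteins carry RNA recognition motifs and a tail of alternating arginine and serine (the RS domain). They bind exons of nascent transcripts and recruit the spliceosome, and kinases such as the CLKs release them from speckles by phosphorylating the tail. Many SR genes and their kinases control their own level through transcripts that keep an intron or carry a poison exon, which are held in the nucleus or destroyed by nonsense-mediated decay. For this reason the transcript rows of each gene, and not only its summed level, were described.

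Promoter windows from RefSeq (build GRCr8) were found for 36 of the 41 genes. Their GC content ran from 40.3% to 78.3% with a median of 64.2%, against a median of 60.3% over the 10684 tested protein-coding genes with such a window. The ratio of observed to expected CpG ran from 0.17, in Clk4, to 1.26, in Snrnp70, with a median of 0.94 against 0.76. The windows run from 250 bases before the start to 50 bases after it, and the 250 bases before the start are printed for 4 genes whose levels are described below, 5′ to 3′ on the strand of the gene. Capitals mark a match on either strand to the box CCAAT, to GGGCGG, known as the GC box, to CCGGAAG, the core bound by ETS factors, to TGCGCATG, the core of NRF1 sites, or to TCTCGCGA, the core of ZBTB33 sites.
Pnn, chr6:82492782-82493031, plus strand: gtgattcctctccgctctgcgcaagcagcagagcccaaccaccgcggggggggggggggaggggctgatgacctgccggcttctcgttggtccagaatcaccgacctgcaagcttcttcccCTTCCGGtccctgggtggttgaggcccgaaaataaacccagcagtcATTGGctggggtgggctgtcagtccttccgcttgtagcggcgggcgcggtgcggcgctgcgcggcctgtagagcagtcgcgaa
Nktr, chr8:130259500-130259749, plus strand: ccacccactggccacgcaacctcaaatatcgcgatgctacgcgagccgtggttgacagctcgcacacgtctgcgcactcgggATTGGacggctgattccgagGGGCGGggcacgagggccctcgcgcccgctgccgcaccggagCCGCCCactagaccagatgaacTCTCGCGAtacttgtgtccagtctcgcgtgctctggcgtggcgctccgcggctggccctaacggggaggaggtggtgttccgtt
Rbm39, chr3:165156236-165156485, minus strand: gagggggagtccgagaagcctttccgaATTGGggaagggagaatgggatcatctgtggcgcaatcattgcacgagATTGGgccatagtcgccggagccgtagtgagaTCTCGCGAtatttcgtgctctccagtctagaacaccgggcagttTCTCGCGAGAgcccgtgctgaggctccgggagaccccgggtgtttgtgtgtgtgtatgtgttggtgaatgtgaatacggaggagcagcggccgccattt
Srsf7, chr6:20563802-20564051, plus strand: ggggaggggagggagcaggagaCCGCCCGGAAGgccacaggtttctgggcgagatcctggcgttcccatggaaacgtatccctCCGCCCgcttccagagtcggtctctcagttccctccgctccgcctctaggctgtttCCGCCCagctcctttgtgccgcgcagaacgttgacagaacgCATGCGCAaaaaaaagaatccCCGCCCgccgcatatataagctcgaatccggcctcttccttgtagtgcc
The 8 letters TCTCGCGA stood in 6 of the 36 windows (16.7%), those of Bclaf1, Luc7l2, Nktr, Rbm39, Srsf10 and Srsf4, and in 2.08% of the 10684. CCAAT was found in 52.8% of the 36 and 38.4% of the 10684, the GC box in 61.1% and 60.1%, and the ETS core in 19.4% and 17.9%. The TATA box (TATAAA) was in 2 windows (5.56%), those of Srsf2 and Srsf3, and in 7.4% of the 10684. The remaining letters searched gave 8.33% against 3.58% for the NRF1 core, 11.1% against 5.59% for AAGATGGC (YY1 core), 2.78% against 3.15% for TGACGTCA (CRE) and 22.2% against 14.2% for TGACNNNGC (antioxidant response core). GC box and ETS matches can overlap, as in the Srsf7 window. A match is a run of letters and not evidence of binding.

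In TPM, which scales reads for transcript length, the 41 genes spanned levels from 13.8 to 511. The highest mean level was that of Ddx5, an RNA helicase, which ran from 492 to 529.8 TPM over the 9 libraries. It was followed by Srsf2, with 374 TPM on average and a range from 340.3 to 396, and by Hnrnpu, with 350.1 TPM and a range from 331 to 369.8. Hnrnpu encodes a protein of the nuclear scaffold, and the ranges of Srsf2 and Hnrnpu overlap. At the other end stood the kinase Clk4, with 11.9 to 15.1 TPM, Rbm6, with 14.4 to 15.6, and Nktr, with 13.6 to 20.2. These 3 ranges overlap too, so that their order is not settled by the libraries. Together the 41 genes held 0.612%, 0.643% and 0.638% of the estimated reads in Control replicates 1 to 3, 0.59%, 0.583% and 0.572% in ESW, and 0.637%, 0.651% and 0.636% in CW.

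Most of the genes were lower in ESW than in CW, by small amounts. Of the 41, 10 were called lower and 0 higher by edgeR's quasi-likelihood test at an adjusted p under 0.05, and 31 were not called. Over all 14706 genes tested, 3.99% were called lower and 4.15% higher. The median log2 fold change of the 41 was -0.13 against -0.00 for all genes. A negative value was found in 32 of the 41 and in 50.5% of all genes. The 3 ESW libraries lay below all 3 CW libraries for 24 genes and above them for 2, against 13.4% and 14.9% of all genes. Because the genes were chosen with these levels known, nothing is read from the comparison of these shares.

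ESW against Control gave 11 genes called lower and 0 higher, with 30 not called. The background was 3.28% of all genes called lower and 4.77% called higher. The median log2 fold change of the 41 was -0.08, with -0.01 for all genes. The value was negative in 33 of the 41 and in 52.6% of all genes. The ESW libraries lay below all Control libraries for 13 genes and above them for 3, against 12.4% and 13.3% of all genes. The ESW libraries are shared by both contrasts, so these counts are not independent of each other.

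CW against Control gave 0 called genes of the 41 in either direction. Among all genes 0.15% were called lower and 0.0272% higher. DESeq2 gave an adjusted p for 40 of the 41 and called 1 higher, against 16 of 7863 genes over all. With limma-voom 0 of the 41 were called higher, against 2 of 14706 genes over all. The median log2 fold change of the 41 was 0.02. CW libraries lay below all Control libraries for 2 of the genes and above them for 6, where the shares of all genes were 7.56% and 7.13%. A gene that was not called is not thereby shown to be level between the groups.

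**Figure D1:**
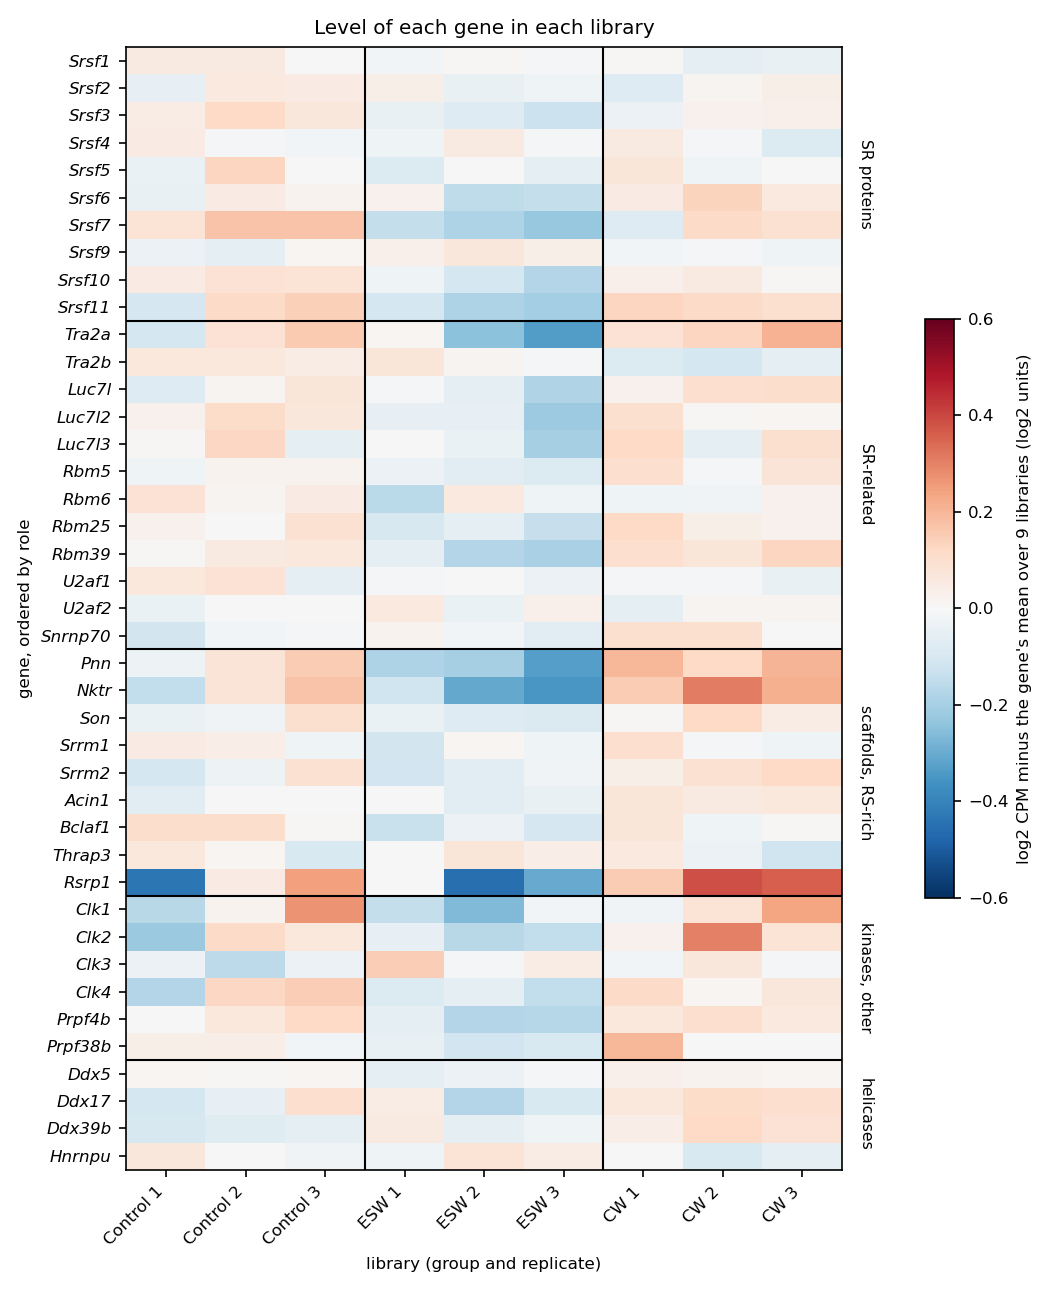
Each row is 1 of the 41 genes, ordered by role, and each column 1 library. Colour gives log2 CPM minus the mean of that gene over the 9 libraries, so that the lower values of ESW replicates 2 and 3 and the mixed values of Control replicate 1 can be seen, with Pnn, Nktr, Rsrp1 and Tra2a showing the widest contrast between ESW and CW.

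Libraries within a group were not alike, as the heat map of all 41 genes shows. The median deviation of the 41 genes from their means over the 9 libraries was -0.04, -0.06 and -0.09 log2 units in ESW replicates 1 to 3 and 0.06, 0.04 and 0.04 in CW. In Control it was -0.03 in replicate 1 and 0.05 in replicates 2 and 3. Control replicate 1 held 23 of the 41 genes below their means, against 10 and 12 in the other two Control libraries and 30, 31 and 36 in ESW. It also stood apart on the second principal component of all genes, at -22.9, where the other 8 libraries ran from -9.83 to 15.3. On the first component Control replicate 1 stood at -10.9, and Control replicates 2 and 3 at 7.08 and 12.3. The ESW libraries had -8.79, -18.9 and -28.7 on that component, and the CW libraries 15.4, 16.1 and 16.5.

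Among the 10 SR proteins, 3 were called lower in ESW against CW (Srsf6, Srsf7 and Srsf11) and 4 in ESW against Control (Srsf3, Srsf7, Srsf10 and Srsf11). Levels between libraries are given from here on in CPM, for which reads were divided by the library total after TMM scaling. Srsf7, a shuttling SR protein that also serves as an adaptor for mRNA export, stood at 125, 133 and 133 CPM in Control replicates 1 to 3, at 107, 104 and 101 in ESW and at 112, 128 and 126 in CW. Every ESW library lay below every library of the other two groups. The log2 fold change was -0.32 against Control (SE 0.05, edgeR adjusted p = 0.00063), a fall of 20%, and -0.23 against CW (SE 0.05, adjusted p = 0.00728). The call against Control held under all 18 alternatives tried, and that against CW under 15, ending when ESW replicate 3 was left out (edgeR adjusted p = 0.0526) or CW replicate 2 (0.0585) or 3 (0.0501).

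Srsf11, an SR protein that joins the early splice-site complexes, stood at 81.5, 94.8 and 96.7 CPM in Control, at 81.3, 76.8 and 76 in ESW and at 95.5, 94.6 and 93.4 in CW. Control replicate 1 was nearly level with ESW replicate 1. On the log2 scale ESW differed by -0.28 from CW (SE 0.05, edgeR adjusted p = 0.00481) and by -0.22 from Control (SE 0.05, adjusted p = 0.0143). Against CW the call held under all 18 alternatives. Against Control it held under 13 and ended with length offsets (-0.14, adjusted p = 0.258) and without replicate 2 or 3 of Control or of ESW (adjusted p from 0.0568 to 0.0885). Srsf6, a regulator of alternative exons, had 179, 191 and 187 CPM in Control, 188, 166 and 167 in ESW and 191, 202 and 192 in CW. Its first ESW library lay among the Control libraries, and its log2 fold change was -0.17 against CW (SE 0.05, edgeR adjusted p = 0.0331) and -0.10 against Control (adjusted p = 0.228). Its call ended with the replicate block (edgeR adjusted p = 0.0558) and without replicate 2 or 3 of ESW or of CW (adjusted p from 0.0851 to 0.164).

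Srsf3, the smallest SR protein and an export adaptor, had 238, 251 and 242 CPM in Control, 224, 219 and 211 in ESW and 225, 235 and 236 in CW. All CW libraries were also below all Control libraries. Its log2 fold change was -0.16 against Control (SE 0.04, edgeR adjusted p = 0.0164) and -0.09 against CW (adjusted p = 0.173). The call ended without Control replicate 2 (edgeR adjusted p = 0.0933) and without ESW replicate 3 (0.105). Srsf10, a splicing repressor when dephosphorylated, had 91.8, 94 and 93.7 CPM in Control, 87.2, 82.3 and 78.4 in ESW and 90.4, 92 and 89.2 in CW. The ESW values were below all others, with -0.17 against Control (SE 0.04, edgeR adjusted p = 0.0172) and -0.13 against CW (adjusted p = 0.0666). The call held under 13 of 18 alternatives and ended with length offsets (edgeR adjusted p = 0.052) and without replicate 2 or 3 of Control or of ESW (adjusted p from 0.0557 to 0.118). The other 5 SR genes, Srsf1, Srsf2, Srsf4, Srsf5 and Srsf9, were called in no contrast. Srsf9 had a positive value in both ESW contrasts, with 43.9 ± 0.69 CPM in ESW, 41.9 ± 1.03 in Control and 42.1 ± 0.28 in CW (SD, n = 3).

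The 12 SR-related factors, which bind RNA or join the early spliceosome, gave 3 called lower in ESW against CW (Tra2a, Rbm25 and Rbm39) and 3 in ESW against Control (Tra2a, Luc7l2 and Rbm39). Rbm39, a coactivator and splicing factor that resembles U2AF, stood at 221, 228 and 229.6 CPM in Control, at 212, 195 and 192 in ESW and at 236, 231 and 240.4 in CW. The 3 groups did not overlap: CW was highest and ESW lowest. The log2 fold change was -0.24 against CW (SE 0.04, edgeR adjusted p = 0.00228) and -0.18 against Control (SE 0.04, adjusted p = 0.0108). The call against CW held under all 18 alternatives, and that against Control ended with length offsets (-0.14, edgeR adjusted p = 0.114) and without ESW replicate 2 (0.0535) or 3 (0.0773).

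Tra2a, one of the pair of vertebrate Transformer-2 splicing activators, had 89.2, 102 and 107 CPM in Control, 96.7, 81 and 76.2 in ESW and 102, 105 and 111 in CW. ESW replicate 1 lay inside the Control range. Its log2 fold change was -0.32 against CW (SE 0.07, edgeR adjusted p = 0.0106) and -0.24 against Control (SE 0.07, adjusted p = 0.0485). With length offsets these values shrank to -0.11 (edgeR adjusted p = 0.294) and -0.08 (adjusted p = 0.529), and neither was called. The call against CW also ended without ESW replicate 2 or 3 or CW replicate 3 (adjusted p from 0.0601 to 0.0778), and that against Control held under 7 of 18 alternatives (adjusted p from 0.0539 to 0.529 where it ended, among them without ESW replicate 2 or 3, without Control replicate 2 or 3 and without any 1 of the CW libraries). Its paralog Tra2b went the other way against CW, with 153 ± 4.49 CPM in ESW libraries against 142 ± 2.59 in CW libraries (SD, n = 3), a log2 fold change of 0.10 that was not called (adjusted p = 0.0922).

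Rbm25, an RS-rich factor that acts on 5′ splice-site choice, had 88, 86.3 and 92.2 CPM in Control, 81, 83.3 and 78.6 in ESW and 94, 88.8 and 88.2 in CW. ESW was below both groups without overlap, at -0.16 against CW (SE 0.04, edgeR adjusted p = 0.0311) and -0.13 against Control (adjusted p = 0.0606). The call against CW ended under 8 of 18 alternatives: with length offsets (-0.12, edgeR adjusted p = 0.165), with the replicate block (0.0534) and without any 1 of the ESW or CW libraries (0.0526 to 0.138). Luc7l2, a partner of the U1 snRNP, had 141, 149.7 and 145 CPM in Control, 134, 134 and 119 in ESW and 148, 139 and 139.6 in CW. The third ESW library was the lowest of the 9, and the log2 fold change was -0.17 against Control (SE 0.05, edgeR adjusted p = 0.0295) and -0.14 against CW (adjusted p = 0.0744). The call ended with length offsets (-0.10, edgeR adjusted p = 0.275) and without Control replicate 2 (0.132), Control replicate 3 (0.0769) or ESW replicate 3 (0.179). Its relatives Luc7l and Luc7l3 had -0.16 and -0.13 against CW and were not called. The core splice-site factors U2af1 and U2af2 had 0.01 and 0.02 against CW, and Snrnp70 of the U1 snRNP had -0.09. Rbm5 (-0.11) and Rbm6 (-0.03), a pair of neighbouring genes that overlap on GRCr8 and whose reads may therefore be shared, were not called either.

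Among the 9 speckle scaffolds and RS-rich proteins, 3 were called lower in ESW against CW (Pnn, Nktr and Rsrp1) and 3 in ESW against Control (Pnn, Nktr and Bclaf1). Pnn encodes pinin, an RS protein of speckles, desmosomes and the exon junction complex. It stood at 69.1, 74.5 and 78.6 CPM in Control, at 62.1, 61.6 and 56.2 in ESW and at 81.2, 76.7 and 81.3 in CW. All ESW libraries lay below all others. The log2 fold change was -0.41 against CW (SE 0.05, edgeR adjusted p = 0.00045), a fall of 24.7%, and -0.31 against Control (SE 0.05, adjusted p = 0.00161), a fall of 19.1%. Against CW it was called under all 18 alternatives and against Control under 17.

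Nktr, a large cyclophilin with an RS-rich tail, stood at 68.6, 80.1 and 85.4 CPM in Control, at 69.9, 61.5 and 59.6 in ESW and at 84.4, 94.1 and 88.2 in CW. Control replicate 1 lay below ESW replicate 1, while ESW and CW did not overlap. In log2 units ESW stood at -0.48 against CW (SE 0.07, edgeR adjusted p = 0.00083) and -0.30 against Control (SE 0.07, adjusted p = 0.0124). The call against CW held under all 18 alternatives, and that against Control ended with length offsets (-0.21, edgeR adjusted p = 0.0949) and without replicate 2 or 3 of Control or of ESW (adjusted p from 0.0576 to 0.0898). Rsrp1, a small RS-rich protein, had the widest difference and the widest spread, with 24.2, 33.8 and 38.8 CPM in Control, 32.6, 23.9 and 26.5 in ESW and 36.4, 42.8 and 41.9 in CW. Its Control libraries overlapped both other groups. The log2 fold change was -0.55 against CW (SE 0.12, edgeR adjusted p = 0.0106) and -0.23 against Control (SE 0.12, adjusted p = 0.279). The call against CW ended under the DESeq2 Wald test (adjusted p = 0.0556) and, in edgeR, without ESW replicate 2 (0.0706), ESW replicate 3 (0.0656), CW replicate 2 (0.064) or CW replicate 3 (0.0539).

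Bclaf1, an RS-rich partner of Thrap3, had 172, 172 and 161 CPM in Control, 146, 156 and 149 in ESW and 168, 157 and 161 in CW. ESW against Control gave a log2 fold change of -0.16 (SE 0.04, edgeR adjusted p = 0.0229) and ESW against CW one of -0.10 (adjusted p = 0.134). The call ended with length offsets (-0.10, edgeR adjusted p = 0.183) and without Control replicate 2 (0.108), ESW replicate 1 (0.0831) or ESW replicate 3 (0.0992). Thrap3 itself had 0.04 against Control and 0.07 against CW and was not called. The large scaffolds Son and Srrm2, which form the core of speckles, had -0.13 and -0.15 against CW (adjusted p = 0.0708 and 0.0516) and -0.08 and -0.06 against Control. Srrm1 (-0.06 against CW) and Acin1 (-0.11), a member of the exon junction complex, were not called.

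The 6 kinases and spliceosome-associated factors gave 1 called gene in each ESW contrast, Prpf4b. Prpf4b, the kinase of the pre-catalytic spliceosome, had 79.2, 82.9 and 86.2 CPM in Control, 76.2, 70.3 and 70.4 in ESW and 82.8, 85.1 and 82.6 in CW. ESW lay below both groups without overlap. The fitted log2 fold change was -0.21 against CW (SE 0.05, edgeR adjusted p = 0.00918) and -0.20 against Control (SE 0.05, adjusted p = 0.0109). With length offsets they were -0.14 (edgeR adjusted p = 0.121) and -0.09 (adjusted p = 0.375), neither called. The call against CW also ended without ESW replicate 2 or 3 or CW replicate 2 (adjusted p from 0.0518 to 0.0594), and that against Control without Control replicate 3 or ESW replicate 2 or 3 (0.054 to 0.0698). The CLK kinases, which phosphorylate SR proteins, were called in no contrast: Clk1 had -0.25 against CW, Clk2 -0.27, Clk4 -0.16 and Clk3 0.04, with SEs from 0.06 to 0.09. Prpf38b had -0.15. Of the 4 RNA helicases and nuclear matrix genes, 0 were called: Ddx17 had -0.16 against CW, Ddx39b -0.09, Ddx5 -0.05 and Hnrnpu 0.08. Ddx39b, the helicase of mRNA export, had 0.16 in CW against Control (adjusted p = 0.123), the smallest p of the 41 in that contrast, and both water groups lay above all Control libraries.

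**Figure D2:**
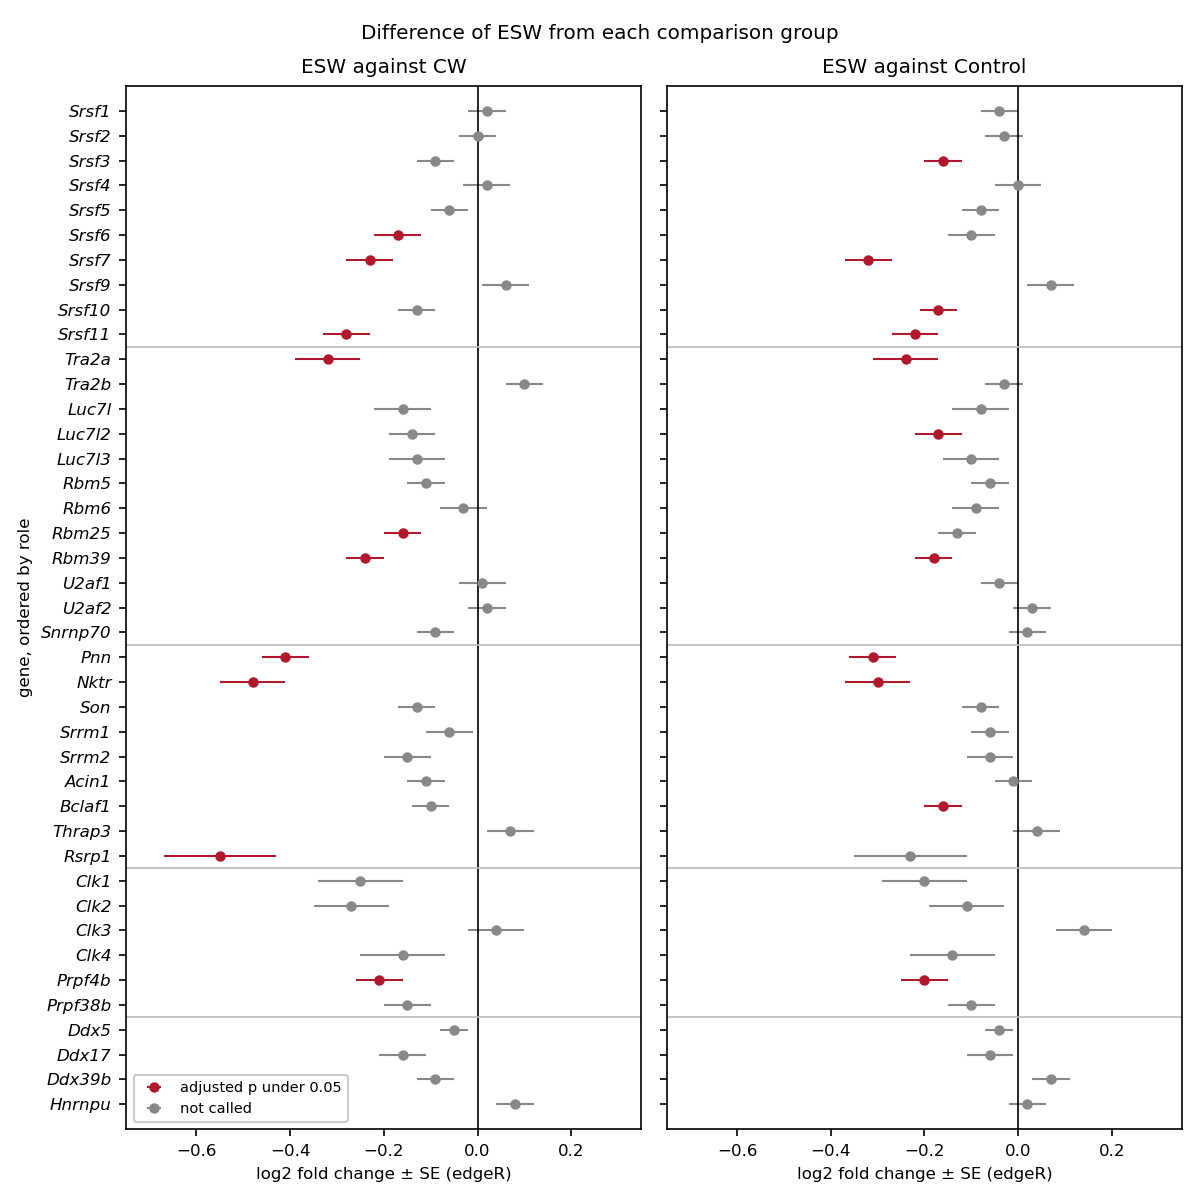
Points give the log2 fold change of each gene in ESW against CW (left) and ESW against Control (right), bars its standard error from edgeR, and red points an adjusted p under 0.05. The called genes all lie left of 0, from -0.16 for Rbm25 to -0.55 for Rsrp1 on the left and from -0.16 for Srsf3 and Bclaf1 to -0.32 for Srsf7 on the right.

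**Figure D3:**
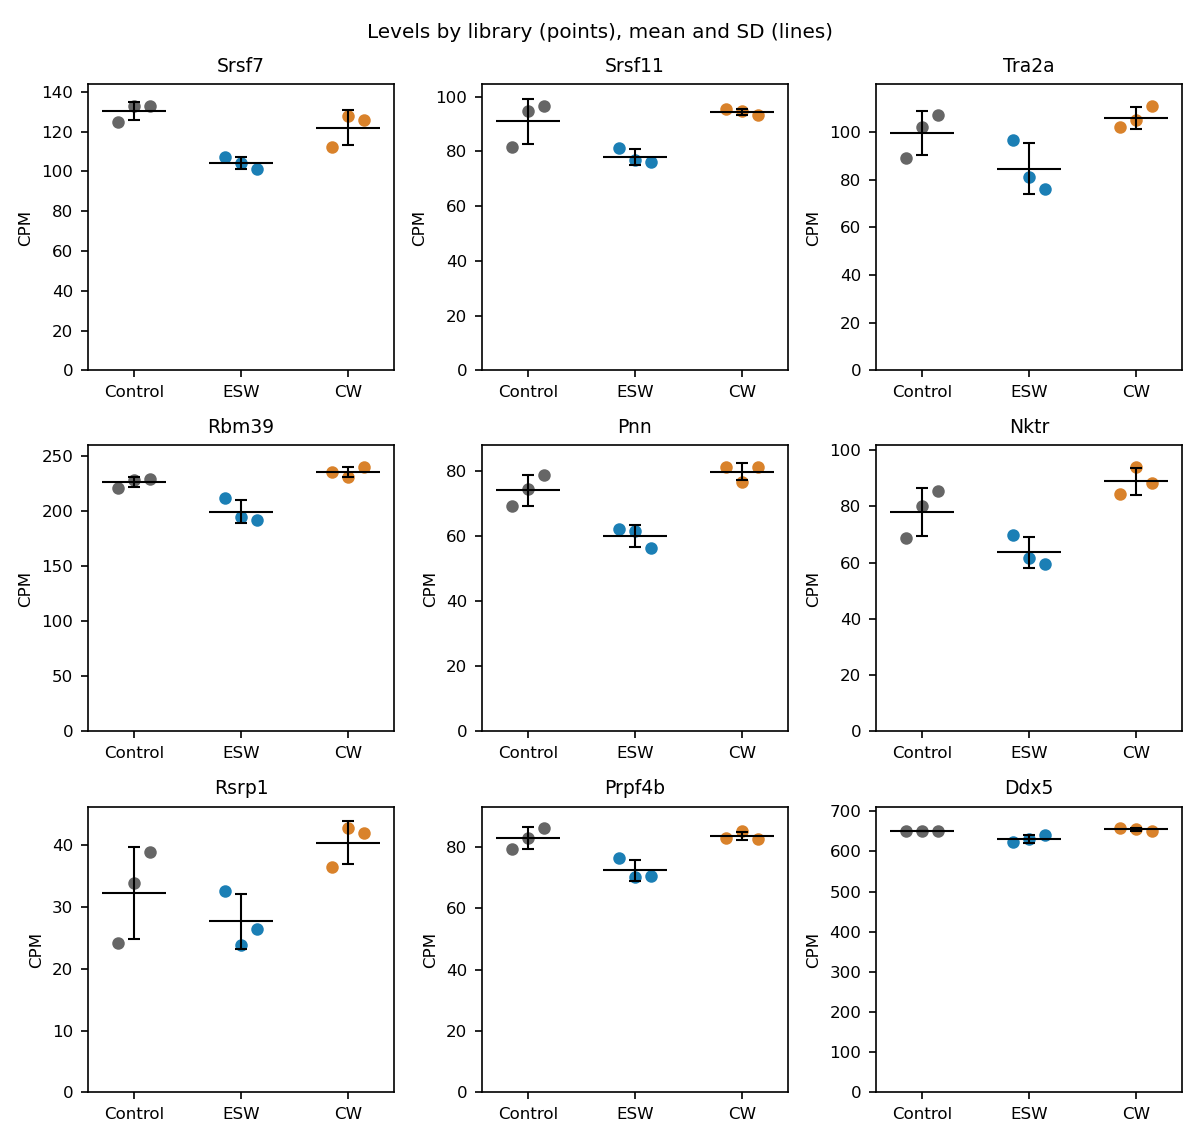
Each panel shows 1 gene, with CPM on the vertical axis from 0, a point for each of the 3 libraries of a group, and the mean with its SD in black. The ESW libraries of Srsf7, Srsf11, Rbm39, Pnn, Prpf4b and Ddx5 lie below all other libraries. The gap is narrow for Srsf11 against Control and for Ddx5. Tra2a, Rsrp1 and Nktr overlap between ESW and Control.

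The number of calls moved with single libraries and with a length offset. Leaving out ESW replicate 3 left 4 of the 41 called lower against CW and 2 against Control, and leaving out Control replicate 1 gave 16 and 13. The calls over all genes moved too: those lower against CW numbered 587 with all libraries, 171 without ESW replicate 3 and 785 without Control replicate 1, and those lower against Control 483, 173 and 762. The average effective length of each gene in each library was formed from the deposited values of its rows, weighted by TPM. For a gene with several rows it therefore also follows the division of reads among them. With this average as an offset, 9 genes were called lower against CW and 2 against Control, Srsf3 and Srsf7. Over all genes 411 and 183 were called lower. Of the 10 genes called against CW without the offset 7 kept the call, and Prpf4b, Rbm25 and Tra2a lost it. The effective length of the single Pnn row was 3152 ± 82 bases in Control, 2919 ± 190 in ESW and 2991 ± 74 in CW (SD, n = 3), and the Pnn value against Control went from -0.31 to -0.22 under that offset (edgeR adjusted p = 0.0604). For Tra2a, which has 9 rows, the average was 2034 ± 79, 1784 ± 63 and 2091 ± 27 bases. 

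Several values of the libraries moved with these differences. Marker sums of fibroblasts, 6 genes with collagens among them, ran from 90094 to 93383 CPM in ESW, from 75383 to 80459 in Control and from 76515 to 80577 in CW. Col1a1, Col1a2 and Col3a1 made up most of that sum, at 38336, 33089 and 17169 CPM on average in ESW. Of the 6 genes 4 were called higher in each ESW contrast. Over all genes 4.15% were called higher against CW and 4.77% against Control. Pdgfra, at 0.211 CPM in ESW, had 0.36 against CW and -0.81 against Control and was not called. The sums of 4 smooth muscle markers were 12733 to 13059 CPM in ESW, 11932 to 12211 in Control and 11351 to 12137 in CW. Acta2 made up most of that sum and was called higher in both ESW contrasts (0.17 in each), whereas Tagln had -0.03 against CW and -0.08 against Control and was not called. The 4 epithelial markers, of which Krt8 alone exceeded 1 CPM, summed to 60.6 to 64.6 CPM in CW, 53.2 to 56.5 in ESW and 49.3 to 58.4 in Control. Rows of non-coding RNA held 1.65%, 1.63% and 1.6% of the reads in ESW, 1.96%, 1.99% and 2.05% in CW, and 1.7%, 1.78% and 1.91% in Control. The part of these in the lower levels of splicing genes was not tested. All 5 blood markers and 3 of 4 endothelial markers were under 1 CPM in every library, and of 6 skeletal muscle markers Myf5 and Ckm were. The same held for 5 of 7 cardiomyocyte markers. Their sums overlapped, at 52.6 to 63.2 CPM in ESW, 52.8 to 55.4 in Control and 53.7 to 64.5 in CW. In such bulk samples fewer cells of a type and less RNA per cell cannot be told apart. Totals ran from 26748673 to 48574618 estimated reads per library.

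The non-coding rows of a gene, those that RefSeq does not regard as protein-coding, can include forms with a kept intron or an early stop. Of the 41 genes, 14 had such rows, 25 rows in all. The share of a gene's reads on them was compared as a log2 ratio to its coding rows with limma, over 1121 genes. In the 3 contrasts 0 of the 14 were called, where the background was 0% in each. At an unadjusted p under 0.05 there were 4 in ESW against CW, 2 in ESW against Control and 1 in CW against Control, and 96, 70 and 57 of the 1121 genes. In ESW against CW these 4 were Bclaf1 (-1.55, SE 0.46), Prpf38b (-0.79, SE 0.30), Son and Srsf2. In ESW against Control they were Srsf7 (-0.84, SE 0.24) and Prpf38b (-0.95, SE 0.30), and in CW against Control Srsf7 (-0.95, SE 0.24). The Srsf7 share was 4.98%, 6.35% and 6.46% in Control, 2.88%, 3.76% and 3.56% in ESW and 2.5%, 3.77% and 3.26% in CW. The median log2 ratio of the 14 was -0.15, -0.13 and -0.15 for the 3 contrasts in that order, and that of all 1121 genes -0.28, -0.18 and 0.11.

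Rsrp1 had the largest such share, with 27.2%, 35.9% and 33.1% of its reads in Control, 31.2%, 31.8% and 33.8% in ESW and 35.4%, 31.1% and 35.3% in CW. The groups overlap, and the log2 ratio was -0.10 for ESW against CW (SE 0.26). Its lower level in ESW was thus divided over coding and non-coding rows: the curated coding row of 1515 bases had 16.5 ± 1.61 TPM in ESW and 20.7 ± 1.36 in CW, and the non-coding row of 1954 bases 9.72 ± 1.11 and 15.5 ± 0.821 (SD, n = 3). Luc7l3 followed, with 31.7%, 34.3% and 34.7% in Control, 25.2%, 24% and 30.5% in ESW and 33.7%, 31.6% and 28.7% in CW. ESW lay below all Control libraries and overlapped CW, and the log2 ratio of -0.49 against Control had an adjusted p of 0.775 (limma).

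Srsf9 had 12.4%, 9.36% and 11.8% in Control, 11.9%, 10.4% and 14% in ESW and 13%, 9.5% and 12% in CW, with no group apart. Son, whose row set overlaps neighbouring genes on GRCr8, had 8.11%, 11.1% and 12.6% in Control, 11.4%, 7.38% and 7.45% in ESW and 12.4%, 13.4% and 13.2% in CW. ESW was below CW in every library, at a log2 ratio of -0.67 (SE 0.26, limma adjusted p = 0.541). Nktr had 6.47%, 7.22% and 7.02% in Control, 7.83%, 6.83% and 8.51% in ESW and 8.23%, 5.97% and 4.13% in CW, where the CW libraries spread most. For Srsf2 the shares were 6.89%, 5.79% and 6.52% in Control, 5.73%, 4.82% and 6.59% in ESW and 6.77%, 8.93% and 8.41% in CW, at -0.53 for ESW against CW (SE 0.20, limma adjusted p = 0.53).

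**Figure D4:**
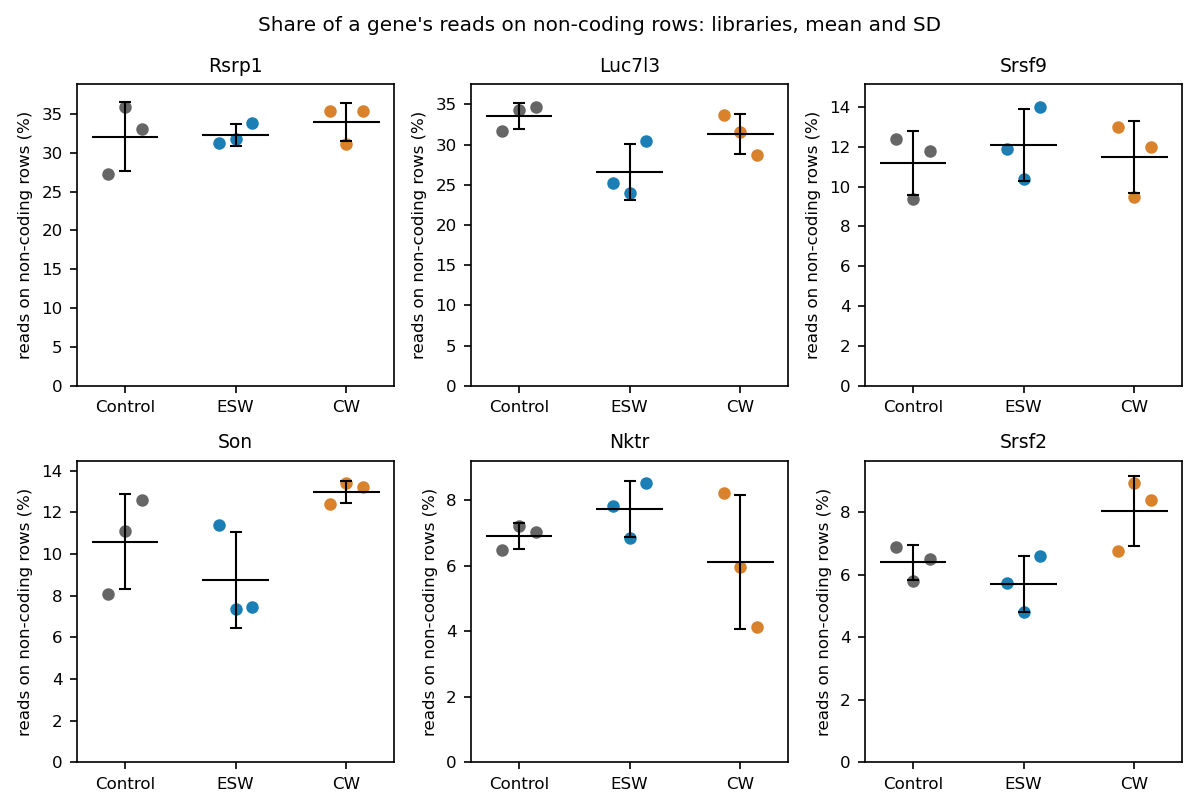
The 6 genes with the highest share of reads on non-coding rows are shown, in percent of the reads of the gene, with a point per library and the mean with its SD in black. Rsrp1 and Srsf9 show overlapping groups, and the Son share of ESW lies below that of CW in every library.

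The 41 genes had 321 rows in the tables, up to 25 for 1 gene, and 4 genes had 1 row. Of these rows 248 passed the filter, and 0 of them were called in any contrast, against 0%, 0.0233% and 0% of the 38609 rows tested for ESW against CW, ESW against Control and CW against Control. The smallest adjusted p among them was 0.0987, that of the Pnn row, for ESW against CW, and 0.0589 and 0.168 in the other two contrasts. At an unadjusted p under 0.05, 32 rows were lower and 9 higher in ESW than in CW, 22 and 2 in ESW against Control, and 13 and 8 in CW against Control. Over all 38609 rows 3823, 3250 and 1923 reached that level in either direction. Salmon divides reads among the rows of a gene by estimate, and the deposited tables hold no measure of that uncertainty.

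In Tra2a, Srsf11 and Nktr, chosen after the row values were seen, a long row differed more between ESW and CW than the most abundant row, though no row of these genes was called. Tra2a has a row of 12136 bases, whose level was 3.77, 5.66 and 6.34 TPM in Control, 4.72, 2.78 and 2.61 in ESW and 6.28, 7.37 and 7.23 in CW. Its most abundant row, of 1857 bases, had 57 ± 2.53 TPM in ESW and 59 ± 3.74 in CW (SD, n = 3). The long row had a log2 fold change of -1.01 in ESW against CW (SE 0.27, edgeR adjusted p = 0.264) and the main row one of -0.02 (SE 0.10).

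Srsf11 has a row of 5448 bases with 8.38, 11.8 and 13.6 TPM in Control, 9.66, 7.2 and 6.69 in ESW and 14.5, 15 and 13.7 in CW, and its main row of 2631 bases had 27.9 ± 1.48 TPM in ESW and 27.3 ± 0.587 in CW (SD, n = 3). The log2 fold changes for ESW against CW were -0.82 (SE 0.19, edgeR adjusted p = 0.204) and 0.05 (SE 0.07). Nktr has a row of 15380 bases, with 1.1, 1.87 and 1.9 TPM in Control, 1.38, 0.615 and 0.825 in ESW and 2.26, 2.15 and 2.11 in CW, at -1.17 for ESW against CW (SE 0.31, edgeR adjusted p = 0.268). Its main row of 6898 bases had 6.43 ± 1.25 and 6.71 ± 1.06 TPM. Another Nktr row, of 11181 bases, differed more, with 0.45 ± 0.175 TPM in ESW and 1.96 ± 0.774 in CW. Its log2 fold change was -2.10 (SE 0.42, edgeR adjusted p = 0.165). In the share described next this row counts among the other rows, being less than 2 times as long as the main row.

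To describe this over all genes, a long row was taken as one at least 2 times as long as the most abundant row of its gene, and the reads on long rows were compared with those on the other rows of the gene by limma. This measure was added after seeing the data. It could be fitted for 1521 genes, 12 of the 41 among them, and 0 of the 12 were called in any contrast. The background was 0.131% of the 1521 for ESW against CW, 0% for ESW against Control and 0.0657% for CW against Control. For ESW against CW, 10 of the 12 had a negative log2 ratio with a median of -0.68, and 68.4% of the 1521 genes had one, with a median of -0.24. For ESW against Control the medians were -0.34 and -0.13, and for CW against Control 0.20 and 0.11.

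Tra2a had 25%, 32.6% and 34.4% of its reads on the long row in Control, 28.2%, 19.8% and 19.5% in ESW and 34.3%, 39.4% and 37.9% in CW. Srsf11 had 27.1%, 33.3% and 37% in Control, 30.5%, 24.9% and 22.8% in ESW and 38%, 39.7% and 38% in CW. Nktr had 13.3%, 19.4% and 18.4% in Control, 15.9%, 8.21% and 11.1% in ESW and 21.1%, 18% and 19.5% in CW. In all 3 genes the ESW libraries lay below all CW libraries, ESW replicate 1 was the highest of its group and Control replicate 1 the lowest of its own. The log2 ratios for ESW against CW were -1.05 for Tra2a (SE 0.24), -0.84 for Srsf11 (SE 0.20) and -0.91 for Nktr (SE 0.28), with limma adjusted p = 0.113, 0.113 and 0.14. Srsf10, which has the largest long-row share (65.4% on average), had a log2 ratio of -0.01 (SE 0.14), and Luc7l2 (64.3%) one of -0.29 (SE 0.14). Srsf7, lower at gene level, had 0.01 (SE 0.10). Clk3, not lower at gene level (0.04 against CW), had -1.03 (SE 0.36, limma adjusted p = 0.163). Its long-row share was 9.17%, 5.33% and 3.55% in ESW and 12.2%, 10.5% and 10.1% in CW. Bclaf1 (-1.74, SE 0.78) and Rbm39 (-4.10, SE 2.41) had larger errors. Whether a long row carries an intron or a long last exon is not told by the tables.

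**Figure D5:**
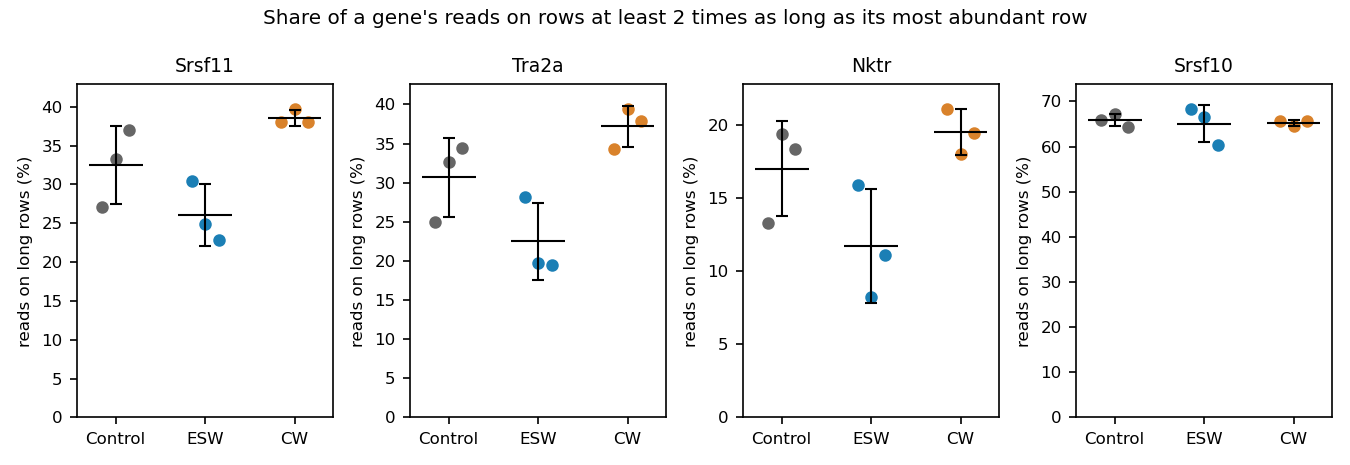
The share of the reads of a gene on rows at least 2 times as long as its most abundant row is shown in percent for Srsf11, Tra2a, Nktr and Srsf10, with a point per library and the mean with its SD in black. For the first 3 genes the ESW libraries lie below the CW libraries, and for Srsf10 the groups overlap.

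Around the 41 genes, 8 further lists of RNA-processing genes were read, chosen like the 41 with earlier results of these data known. Over all 14706 genes tested, 3.99% were called lower and 4.15% higher in ESW against CW. In ESW against Control these shares were 3.28% and 4.77%, and in CW against Control 0.15% and 0.0272%. Nothing is read from the counts of a list beside these shares. The list most like the 41 holds 33 tested genes of speckles or with RS-rich tails. Of these, 6 were called lower and 0 higher in ESW against CW. In ESW against Control 2 were lower and 0 higher, and in CW against Control 0 were called. The median log2 fold change of this list was -0.05 for ESW against CW. Pnisr, an RS protein that binds pinin, had 26.8 ± 3.73 CPM in ESW, 39.4 ± 0.997 in CW and 33.3 ± 4.99 in Control (SD, n = 3), at -0.56 against CW (edgeR adjusted p = 0.00191). Arglu1, an arginine- and glutamate-rich splicing coactivator, had -0.39 (adjusted p = 0.00235), the speckle cyclin Ccnl2 -0.57 (adjusted p = 0.00561) and the SR-like Srek1 -0.34 (adjusted p = 0.0092).

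The core of the spliceosome, 36 snRNP and catalytic genes, gave 2 called higher and 0 lower in ESW against CW, and 0 higher and 3 lower in ESW against Control. Prpf6, a scaffold of the tri-snRNP, had 0.18 against CW (edgeR adjusted p = 0.0115), and the Sm-ring genes Snrpd1 (-0.24), Snrpd2 (-0.28) and Snrpe (-0.18) were called lower against Control. Of 19 SR protein kinases, phosphatases and modifiers 0 were called in any contrast. The 23 hnRNP genes, whose proteins often oppose SR proteins, gave 3 higher (Pcbp1, Hnrnpa0 and Pcbp2, from 0.17 to 0.21) and 1 lower (Hnrnpdl, -0.16) in ESW against CW, and 1 higher and 2 lower in ESW against Control.

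Of 16 genes of the exon junction complex and nonsense-mediated decay, 2 were lower in each ESW contrast. Magoh, a core subunit of the junction complex, had 32.1 ± 1.81 CPM in ESW, 40.7 ± 1.44 in Control and 36.8 ± 0.669 in CW (SD, n = 3), at -0.34 against Control (edgeR adjusted p = 0.00081). Among 13 mRNA export genes 2 were lower against CW, the export receptor Nxf1 (-0.31, edgeR adjusted p = 0.00972) and Thoc7 of the THO complex (-0.20, adjusted p = 0.0155), and Thoc7 alone against Control (-0.21). Nxf1 had 106 ± 14.3 CPM in Control, between 102 ± 5.74 in ESW and 127 ± 4.54 in CW. Of 8 paraspeckle genes 0 were called against CW and 1, Matr3, against Control (-0.15). The nuclear RNAs Malat1 and Neat1 were not analysed here.

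Of 12 tested splicing regulators of muscle and other tissues, 1 was higher and 1 lower in each ESW contrast, and 2 were lower in CW against Control. Ptbp2, a splicing repressor best known from neurons, had 13.3 ± 0.217 CPM in ESW, 17.2 ± 2.41 in Control and 18.2 ± 2.46 in CW (SD, n = 3), at -0.46 against CW (edgeR adjusted p = 0.0088) and -0.37 against Control (adjusted p = 0.0248). Rbm38 was higher against Control (0.38, adjusted p = 0.00535). Qki (-0.25, adjusted p = 0.0236) and Mbnl2 (-0.21, adjusted p = 0.0315) were lower in CW than in Control, and Qki was higher in ESW than in CW (0.18).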

How the data were processed

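RNA sequencing of 9 libraries (Control, ESW and CW, 3 each) was read from the deposited tables. Per the submitters' processing notes the authors used Salmon 1.10.3 and DESeq2 with no version named; build, annotation, options and strand use are not given in the sources used here. Per the file headers each of the 114122 rows gives an estimated count, TPM and transcript lengths, and the deposited lengths and effective lengths are numbers of bases. The estimated counts deposited by the authors are fractional. The TPM values, as deposited, are scaled to transcript length and library total.

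All rows were matched by accession to RefSeq genes of GRCr8, estimated counts were summed per gene and rounded, and edgeR 4.0.16 (R 4.3.3; quasi-likelihood test, TMM, filterByExpr) was fitted to all 9 libraries with 6 residual degrees of freedom, at gene level (14706 genes) and over transcript rows (38609 rows). Benjamini-Hochberg adjusted p-values run over all features. Non-coding and long-row shares were compared as log2 ratios with a prior of 0.5 reads by limma 3.58.1, where both kinds of row had at least 10 reads in 3 libraries. CPM are relative to TMM-scaled totals. The scripts' tests were tested on simulated data.

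The members, the 8 pathway lists, the marker lists and the motifs were chosen with earlier results of these data known. Genes were named where called, where highest or lowest in TPM or in non-coding share, and, per list, up to 4 called genes by smallest p. Non-coding shares were also named at an unadjusted p under 0.05, and individual long rows after their values were seen. Replicates were compared and none were duplicates. Same-numbered libraries did not deviate together, so no pairing was used. Alternatives were DESeq2 1.42.0 size factors and Wald test, other filters, limma-voom, length offsets, coding rows alone, a replicate block, 6 libraries alone and leaving out each library. Protein sequences were not used here.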

Additional observations from a re-analysis of the deposited data

How the results depend on the processing

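Counts of the 41 genes called lower are given for ESW against CW, where they were 10 of 41, and ESW against Control, where they were 11. Without a filter on low counts they were 16 and 13, and 3 genes were called higher in CW against Control. Over all 24470 genes then tested, 845 and 754 were called lower, and 115 higher in CW against Control. With at least 1 CPM in 3 libraries the counts of the 41 were 17 and 12, and over all 12373 genes 708 and 601. Under that filter 1 row of the 41 genes was called higher in ESW against Control, and 52 of 28926 rows over all. The DESeq2 Wald test gave 14, 11 and 1 higher in CW against Control, where 40 of the 41 had an adjusted p. Over all genes it gave 609 of 13279 and 504 of 9574 lower, and 16 of 7863 higher in CW against Control. Average effective length offsets gave 9 and 2, and 411 and 183 over all genes. The cause of that shift was not tested. With a replicate block the counts of the 41 were 10 and 10, and 0 in CW against Control. Over all 14706 genes 471 and 395 were then called lower. The block ended the calls of Rbm25 and Srsf6 against CW and of Tra2a against Control. The counts of called shares and rows of the 41 stayed at 0 with it. Over all genes, leaving out 1 library gave 171 to 785 called lower for ESW against CW and 173 to 762 for ESW against Control. For the 41 it gave 4 to 16 and 2 to 13, and 0 for CW against Control in every case. The lowest counts came without ESW replicate 3 (4 and 2); without ESW replicate 2 they were 5 and 5, without CW replicate 2 or 3 the first was 5, and without Control replicates 2 and 3 the second was 4 and 5. The highest came without Control replicate 1 (16 and 13). No called gene changed sign under any of the 18 alternatives in either contrast, and called non-coding shares stayed at 0. Tra2a kept its call against Control in 7 of the 18 alternatives, Rbm25 its call against CW in 10. Estimated division of reads among rows, with no uncertainty deposited, limits the row and share values.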
